A study of Arabidopsis thaliana with 8 samples.

Results

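Kinesins are motor proteins that move along microtubules. The genes described here are those whose reporter description on the array contains the word kinesin, in any letter case. The rule selected 75 reporters (oligonucleotide probes) of 73 gene models at 70 loci, among 26116 gene models with reporters on the array. Of the 73 gene models, 62 at 60 loci encode proteins with a kinesin motor, and 11 at 10 loci are kinesin light chain-related proteins, or proteins with a weak similarity to a kinesin, that are not motors themselves. The label of motor genes therefore covers most but not all of them, and the 11 are described apart.

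In dividing plant cells, kinesins of several families build the mitotic spindle and then the phragmoplast, the array of microtubules that lays down the new cell wall between the daughter nuclei. Other kinesins act between divisions, on cellulose deposition, cell shape and the movement of organelles. The plane in which a cell divides shapes the early Arabidopsis embryo, whose cells do not migrate, and BODENLOS (BDL, also IAA12) is an auxin response repressor known for its part in the divisions that found the embryonic root.

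The embryos came from 2 crosses of Arabidopsis thaliana. In Q0990 x bdl, plants of the line Q0990 were pollinated by plants of the line bdl, named after a mutation that stabilises BDL. In Q0990 x Col-0, the control, plants of Q0990 were pollinated by the Col-0 ecotype. The Q0990 seed parent, a GAL4 enhancer trap line, was common to both crosses, the ecotype was given as Col-0 for both, and all plants grew under 16 h of light and 8 h of dark. Embryos were isolated 6 days or 3 days after pollination, which the series text counts as days after fertilization. The labels give neither the number of embryos per sample nor what else the bdl stock carries. Each of 8 2-colour arrays compared amplified RNA of the 2 crosses, with 4 arrays for day 6 and 4 for day 3 that the series text calls biological replicates. The labels do not say whether replicates came from separate plants, so p-values measure only the spread between these arrays. The values below are log2 ratios with Q0990 x bdl above and Q0990 x Col-0 below the fraction line, taken from intensities raised by 50, and 4 values in a row follow replicates 1 to 4. Such ratios understate the change of dim reporters. An effect was called at a limma adjusted p (Benjamini-Hochberg, over all gene models tested) under 0.05.

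The arrays held 25982 or 25983 measured gene spots on day 6 and 22286 on day 3, with median intensities between 226 and 453 on day 6 and between 338 and 526 on day 3. Ratios of arrays of 1 day correlated at 0.732 to 0.869 on day 6 and at 0.566 to 0.778 on day 3 across gene models, which are not independent replicates. After subtraction of the day mean, the arrays did not group by the dye on the labels, which puts Q0990 x bdl in the same dye on replicates 1 and 2. The deviations of replicates 1 and 3 correlated at -0.155 on day 6 and 0.155 on day 3, and those of replicates 2 and 4 at 0.224 on day 6 and 0.029 on day 3, whereas every other pair within a day lay between -0.593 and -0.429. What the array pairs share was not tested, so calls are also given with a term for the pairs in place of the labelled dye, an alternative added after the data were seen. BDL itself was raised in Q0990 x bdl, with an effect of 1.25 on day 6 and 1.21 on day 3 for the reporter of 1 gene model (adjusted p = 1.03e-05 and 1.33e-05) and of 0.57 on day 6 and 0.16 on day 3 for that of the other (adjusted p = 0.000146 and 0.0385).

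Markers of the tissues of the seed moved with the cross on day 3. Of all gene models tested, 16.2% were called higher and 19.3% lower in Q0990 x bdl on day 6 (35.5% in all), and 20.8% higher and 20.9% lower on day 3 (41.7% in all). Of 12 embryo marker models tested on day 3, 11 were called lower and 0 higher in Q0990 x bdl, with a median effect of -0.67. In the same arrays 9 of 12 endosperm marker models and 11 of 18 seed coat marker models were called higher and 0 lower, with medians of 0.68 and 0.47. On day 6 the medians were 0.08 for embryo, 0.07 for endosperm and 0.02 for seed coat markers, and the calls went 5 higher and 2 lower of 13, 3 higher and 0 lower of 11, and 3 higher and 2 lower of 18. These day 6 counts moved with single arrays. The embryo markers called higher numbered 2 without day 6 replicate 4 and 3 without day 6 replicate 1 or 2, the endosperm markers called higher 1 without day 6 replicate 4, the seed coat markers called higher 1 without day 6 replicate 1, and the seed coat markers called lower 1 when any one of the day 6 arrays was left out. The summed intensity of 12 embryo marker reporters lay between 12780 and 36040 in Q0990 x bdl and between 11420 and 34130 in Q0990 x Col-0 on day 6, and between 18230 and 35540 in Q0990 x bdl and between 23200 and 50040 in Q0990 x Col-0 on day 3. The sum over 18 seed coat marker reporters lay between 12800 and 33070 in Q0990 x bdl and between 10980 and 26100 in Q0990 x Col-0 on day 6, and between 89020 and 164800 in Q0990 x bdl and between 67200 and 99780 in Q0990 x Col-0 on day 3. The sum over 11 endosperm marker reporters lay between 1780 and 9082 in Q0990 x bdl and between 1584 and 7720 in Q0990 x Col-0 on day 6, and between 10160 and 18380 in Q0990 x bdl and between 5974 and 11040 in Q0990 x Col-0 on day 3. WOX2, a marker of the early embryo, was above the blank spots on no array of either day, and WOX9 on no day 3 array. FIS2, AGL36 and MINI3 of the endosperm list were above the blank spots on no day 6 array, nor was either model of TT16 of the seed coat list. WOX9 on day 3 and MINI3 on day 6 had usable values on fewer than 3 arrays, so they were not tested there. The part of these tissues in the kinesin results was not tested, and in bulk RNA fewer cells of a type and less RNA per cell cannot be told apart.

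**Figure D1:**
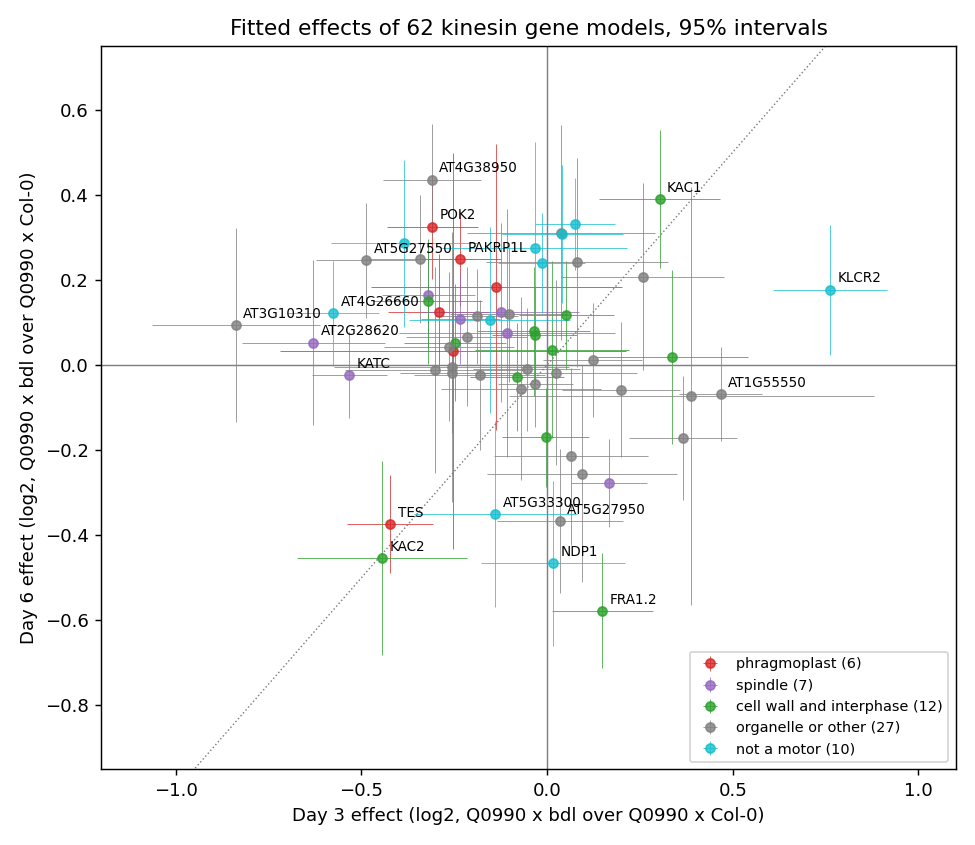
Day 6 effect (vertical axis) against day 3 effect (horizontal axis) of the 62 kinesin gene models tested on both days, both as log2 ratios (Q0990 x bdl divided by Q0990 x Col-0). Bars are 95% confidence intervals of the fit, colours are the role groups, numbers in the legend count models, and the dotted line marks equal effects. Phragmoplast and spindle motors lie mostly in the upper left, below 0 on day 3 and above 0 on day 6, while TES, KAC2 and KAC1 lie near the dotted line.

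Of the 73 gene models, 63 passed the filter on dim reporters, which kept a reporter brighter than 95% of blank spots in at least 4 of the 16 channel measurements. All 63 were tested on day 6 and 62 on day 3. The 10 others are PAKRP1, AT1G09170, AT1G73860, AT2G21300, AT3G45850, AT3G51150, AT4G24170, AT5G37590, AT5G41310 and AT5G42490. Of these, 9 had no value on the day 3 arrays, and AT5G41310 had none on either day. MKRP1 (AT1G21730), a kinesin-7 with a targeting sequence for mitochondria, also lacked day 3 values and had a day 6 effect of -0.16 that was not called (adjusted p = 0.0723). Only 28 models exceeded the blank spots in all 16 measurements, so many of the effects below rest on dim reporters.

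On day 6, 11 of the 63 models were called higher in Q0990 x bdl (17.5%) and 8 lower (12.7%), against 16.2% higher and 19.3% lower, 35.5% in all, among the 20660 gene models tested. On day 3, 22 of the 62 models were called lower (35.5%) and 7 higher (11.3%), against 20.9% lower and 20.8% higher, 41.7% in all, among the 20242 gene models tested. The median effect over the kinesin models was 0.05 on day 6 and -0.09 on day 3. The difference between days, the day 6 effect minus the day 3 effect, was called positive for 18 of 62 models (29.0%) and negative for 7 (11.3%), against 19.5% positive and 21.7% negative, 41.1% in all, of the 19965 gene models tested. On both days 11 models were called. Of these, 3 had the same sign on both days (TES, KAC1 and KAC2), and 8 were lower on one day and higher on the other. Such models were not counted over all gene models, so neither count can be read as particular to the kinesins. With the array pair term the counts were 18 higher and 10 lower on day 6, and 9 higher and 22 lower on day 3. The shares over all gene models above belong to the fit with the labelled dye, so these counts cannot be set against them. The count of models called higher was 6 on day 6 without day 6 replicate 1 or without day 6 replicate 4, and 4 on day 3 without day 3 replicate 2 or without day 3 replicate 4. The count called lower on day 3 stayed between 19 and 21 without any 1 array.

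The motors of cell division were mostly lower on day 3. Of the 13 phragmoplast and spindle motors tested, 3 were called higher and 2 lower on day 6, and 1 higher and 8 lower on day 3. These are 23.1% higher and 15.4% lower on day 6, near the 16.2% and 19.3% over all gene models, and 7.69% higher and 61.5% lower on day 3, against 20.8% and 20.9%. Their median effect was 0.11 on day 6 and -0.25 on day 3. The effect lay below 0 for 12 of the 13 on day 3, where the median effect over all gene models was 0.002. The difference between days was called positive for 7 of the 13 (53.8%) and negative for 1 (7.69%). Over all gene models these shares were 19.5% and 21.7%. Within the array pairs the median ratio of these motors was 0.12 on day 6 replicates 1 and 3, 0.09 on day 6 replicates 2 and 4, -0.28 on day 3 replicates 1 and 3 and -0.23 on day 3 replicates 2 and 4. Whether these motors differ from other kinesins was not tested. The embryo markers had a median effect of 0.08 on day 6 and -0.67 on day 3 on the same arrays, and their part in the result was not tested.

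**Figure D2:**
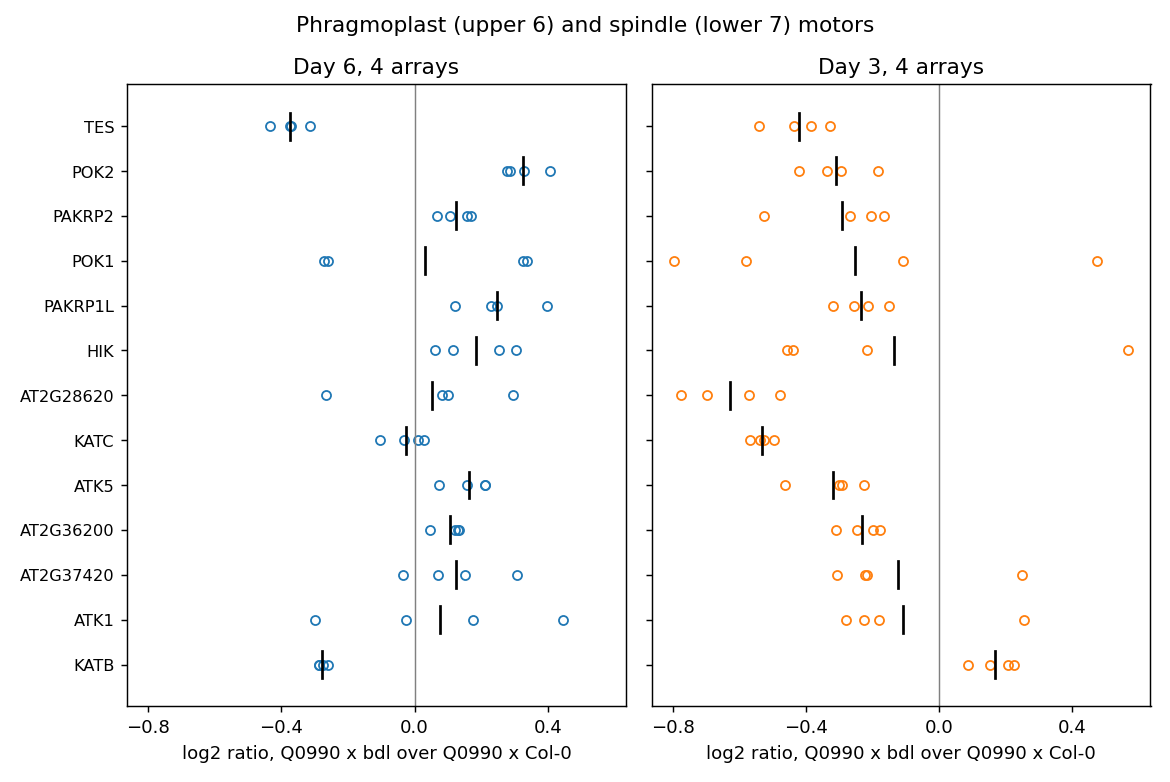
Log2 ratio (Q0990 x bdl divided by Q0990 x Col-0) on each array (circles) for the 6 phragmoplast and 7 spindle motors that were tested, with day 6 left and day 3 right. Black bars are means of 4 arrays. On day 3 the ratios of 8 motors are below 0 on all 4 arrays, and KATB is above 0 on all 4 arrays. On day 6 TES and KATB are below 0 on all 4 arrays.

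Among the phragmoplast motors, TES was lower in Q0990 x bdl on both days. TES (AT3G43210, also NACK2) is a kinesin-7 that activates a MAP kinase cascade needed for the phragmoplast to expand, together with its relative HIK. Its intensities were 3294, 359.7, 1342 and 975.9 in Q0990 x bdl, against 4373, 474.8, 1728 and 1210 in Q0990 x Col-0, on day 6. On day 3 they were 750.9, 464, 1566 and 1200 in Q0990 x bdl, against 954.8, 704.2, 2134 and 1579 in Q0990 x Col-0. The Q0990 x bdl channel was the dimmer one on each of the 8 arrays. The TES ratios were -0.44, -0.37, -0.37 and -0.31 on day 6, against -0.33, -0.54, -0.44 and -0.38 on day 3. The fitted effects were -0.37 on day 6 (1.29-fold lower, adjusted p = 0.000922, SD 0.05, n = 4) and -0.42 on day 3 (1.34-fold lower, adjusted p = 0.000365, SD 0.0908, n = 4). They differed by 0.05 (95% interval -0.11 to 0.21, adjusted p = 0.62).

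HIK (AT1G18370, HINKEL or NACK1), which acts with TES, was not called on either day. Its ratios were 0.25, 0.12, 0.30 and 0.06 on day 6, against -0.44, 0.57, -0.46 and -0.22 on day 3. The day 6 ratios were all above 0, and replicate 2 stood apart from the others on day 3. The effects were 0.18 on day 6 (adjusted p = 0.367) and -0.14 on day 3 (adjusted p = 0.495). Without day 3 replicate 2 the day 3 effect was -0.38 (adjusted p = 0.0091) and the difference between days 0.56 (adjusted p = 0.00504).

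The kinesin-12 motors POK2 and PAKRP1L moved in opposite directions on the 2 days. POK1 and POK2 guide the orientation of the division plane, and PAKRP1 and PAKRP1L sit at the midzone of the phragmoplast. The POK2 (AT3G19050) ratios were 0.28, 0.41, 0.29 and 0.33 on day 6, against -0.30, -0.34, -0.42 and -0.18 on day 3. No ratio of one day overlapped those of the other, and the effects were 0.33 on day 6 (1.25-fold higher, adjusted p = 0.0024, SD 0.0591, n = 4) and -0.31 on day 3 (1.24-fold lower, adjusted p = 0.00231, SD 0.0984, n = 4). The difference between days was 0.63 (95% interval 0.46 to 0.81, adjusted p = 0.000441). POK2 was dim, and on day 6 its Q0990 x bdl intensities exceeded the blank spots on 4 arrays and its Q0990 x Col-0 intensities on 1. The blank spots were brighter in Q0990 x Col-0 on day 6 replicates 2 to 4, so these 2 counts do not compare the crosses.

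The PAKRP1L (AT3G23670) ratios were 0.40, 0.25, 0.23 and 0.12 on day 6, against -0.15, -0.21, -0.32 and -0.26 on day 3. Its effects were 0.25 on day 6 (adjusted p = 0.0052) and -0.23 on day 3 (adjusted p = 0.00539), with a difference of 0.48 (adjusted p = 0.00097). These again did not overlap between days, at intensities between 40.95 and 191.1 on day 6 and between 62.3 and 128.4 on day 3, near the blank spots. POK1 (AT3G17360) was too variable for a call, with ratios of 0.34, -0.27, 0.33 and -0.26 on day 6, against -0.58, -0.11, 0.47 and -0.80 on day 3. Its day 6 ratios split by array pair, with replicates 1 and 3 above 0 and replicates 2 and 4 below 0, and without day 3 replicate 3 its day 3 effect was -0.53 (adjusted p = 0.0478). PAKRP1 (AT4G14150) had intensities of 20.17 to 66.88 in Q0990 x bdl and 31.21 to 56.41 in Q0990 x Col-0 on day 6, above the blank spots on no array, and no value on day 3.

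PAKRP2 (AT4G14330), a kinesin-10 that travels on phragmoplast microtubules with vesicles of the cell plate, was lower on day 3. Its ratios were 0.11, 0.16, 0.17 and 0.07 on day 6, against -0.20, -0.17, -0.53 and -0.27 on day 3. The effects were 0.13 on day 6 (adjusted p = 0.135) and -0.29 on day 3 (1.22-fold lower, adjusted p = 0.00505), and the difference of 0.42 was called (adjusted p = 0.00507). All 4 ratios were above 0 on day 6 and all 4 below 0 on day 3.

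Among the spindle motors, the kinesin-5 gene AT2G28620 and the kinesin-14 gene KATC were lowered most on day 3. Kinesin-5 motors slide antiparallel spindle microtubules apart. The AT2G28620 ratios were -0.27, 0.10, 0.30 and 0.08 on day 6, against -0.70, -0.57, -0.77 and -0.48 on day 3. Its effects were 0.05 on day 6 (adjusted p = 0.66, SD 0.235, n = 4) and -0.63 on day 3 (1.55-fold lower, adjusted p = 0.000646, SD 0.132, n = 4), with a difference of 0.68 (adjusted p = 0.00258). On day 6 replicate 1 its intensities were 86.75 in Q0990 x bdl and 114.1 in Q0990 x Col-0, far below the 652.2 to 1763 of the other 3 arrays. The relative AT2G36200 had ratios of 0.13, 0.12, 0.13 and 0.05 on day 6, against -0.31, -0.20, -0.25 and -0.18 on day 3, with effects of 0.11 on day 6 (adjusted p = 0.105) and -0.23 on day 3 (adjusted p = 0.0044) and a called difference of 0.34 (adjusted p = 0.00402). Both kinesin-5 genes were below 0 on all 4 day 3 arrays.

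Another kinesin-5 gene, AT2G37420, was dim and not called, with ratios of 0.15, 0.07, -0.03 and 0.31 on day 6, against -0.22, 0.25, -0.31 and -0.22 on day 3. Without day 3 replicate 2 its day 3 effect was -0.25 (adjusted p = 0.0409). The last, AT3G45850, was above the blank spots on no array.

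Kinesin-14 motors walk to the minus ends of microtubules and focus the spindle poles. KATC (AT5G54670, also ATK3) had intensities of 1071, 1479, 1478 and 2030 in Q0990 x bdl, against 1562, 2167, 2212 and 2864 in Q0990 x Col-0, on day 3. Its ratios were 0.01, 0.03, -0.03 and -0.10 on day 6, against -0.53, -0.54, -0.57 and -0.50 on day 3. The day 3 ratios lay close together, and the effects were -0.02 on day 6 (adjusted p = 0.701, SD 0.0586, n = 4) and -0.53 on day 3 (1.45-fold lower, adjusted p = 6.97e-05, SD 0.0296, n = 4). The difference between days was 0.51 (95% interval 0.36 to 0.65, adjusted p = 0.000503).

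KATB (AT4G27180, also ATK2), a close relative of KATC, had a called effect below 0 on day 6 and above 0 on day 3. Its ratios were -0.29, -0.28, -0.26 and -0.29 on day 6, against 0.15, 0.23, 0.09 and 0.21 on day 3. The effects were -0.28 on day 6 (1.21-fold lower, adjusted p = 0.00219, SD 0.0126, n = 4) and 0.17 on day 3 (1.12-fold higher, adjusted p = 0.0175, SD 0.0622, n = 4), and the difference was -0.44 (adjusted p = 0.00101). The day 3 call was lost without day 3 replicate 2 (adjusted p = 0.0741) or replicate 4 (adjusted p = 0.0706). Whether the KATB and KATC reporters also bind each other's RNA was not tested.

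ATK5 (AT4G05190), which gathers microtubules at the spindle midzone, had ratios of 0.07, 0.21, 0.16 and 0.21 on day 6, against -0.29, -0.30, -0.23 and -0.46 on day 3. Its effects were 0.16 on day 6 (adjusted p = 0.0467) and -0.32 on day 3 (1.25-fold lower, adjusted p = 0.00215), with a difference of 0.48 (adjusted p = 0.00168). The day 6 call lay close to the threshold and was lost without any 1 of the day 6 arrays (adjusted p between 0.058 and 0.169), whereas the day 3 call was kept under each alternative run. ATK1 (AT4G21270, also KATA), its nearest relative, was near the blank spots and not called, with ratios of 0.45, -0.02, -0.30 and 0.18 on day 6, against -0.22, -0.18, 0.25 and -0.28 on day 3.

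All 12 models of the motors of interphase and the cell wall were tested. On day 6, 1 was called higher and 3 lower, and on day 3, 2 were called higher and 3 lower, with medians of 0.04 on day 6 and -0.02 on day 3. The shares called, 33.3% on day 6 and 41.7% on day 3, were near the 35.5% and 41.7% over all gene models. The 3 armadillo repeat kinesins (ARK1, ARK2 and ARK3), of which ARK1 acts in root hair growth, and the 2 kinesin-13 models had no called effect on either day.

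FRA1, a kinesin-4 needed for ordered cellulose deposition, was lower on day 6. The reporter of its gene model AT5G47820.2 read 9779, 1876, 1923 and 3571 in Q0990 x bdl, against 15960, 2673, 2745 and 5221 in Q0990 x Col-0, on day 6. The ratios were -0.74, -0.50, -0.52 and -0.54 on day 6, against 0.25, 0.05, 0.21 and 0.09 on day 3. The effects were -0.58 on day 6 (1.49-fold lower, adjusted p = 0.000241, SD 0.112, n = 4) and 0.15 on day 3 (adjusted p = 0.0748, SD 0.0932, n = 4). The difference between days was -0.73 (adjusted p = 0.000369). The reporter of the other gene model, AT5G47820.1, had ratios of -0.24, -0.14, -0.22 and -0.08 on day 6, against 0.06, -0.02, -0.09 and 0.03 on day 3. For AT5G47820.1 the day 6 effect of -0.17 was called (adjusted p = 0.0323) and the difference of -0.17 was not (adjusted p = 0.0987). Both reporters thus gave a lower value on day 6 but of unequal size.

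The other kinesin-4 genes differed from FRA1. AT5G60930 was lower on day 3 (effect -0.32, adjusted p = 0.00463), with an effect of 0.15 on day 6 (adjusted p = 0.103) and a called difference of 0.47 (adjusted p = 0.00409). KICP-02 (AT3G50240) had a day 3 effect of -0.25 that was called and a difference of 0.30 that was called, at intensities that exceeded the blank spots on 1 array in each cross on day 3.

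KAC1 and KAC2, kinesin-14 proteins that act in the light-directed movement of chloroplasts, had effects of opposite sign to each other and kept their own sign on both days. The KAC2 (AT5G65460) ratios were -0.20, -0.57, -0.35 and -0.68 on day 6, against -0.68, -0.22, -0.56 and -0.32 on day 3. Its effects were -0.45 on day 6 (1.37-fold lower, adjusted p = 0.00905) and -0.44 on day 3 (1.36-fold lower, adjusted p = 0.00795), and they differed by -0.01 (95% interval -0.33 to 0.31). Within each day the KAC2 ratios split by array pair, with replicates 2 and 4 lower on day 6 and replicates 1 and 3 lower on day 3, and the day 6 call was lost without day 6 replicate 4 (adjusted p = 0.0524). The KAC1 (AT5G10470) ratios were 0.56, 0.41, 0.39 and 0.21 on day 6, against 0.13, 0.39, 0.28 and 0.41 on day 3. KAC1 had effects of 0.39 on day 6 (1.31-fold higher, adjusted p = 0.00381) and 0.30 on day 3 (1.23-fold higher, adjusted p = 0.0096). KCBP (AT5G65930, also ZWICHEL), a calmodulin-binding kinesin-14 known for trichome shape, was higher on day 3 (effect 0.34, adjusted p = 0.0165) and had an effect of 0.02 on day 6 (adjusted p = 0.889).

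**Figure D3:**
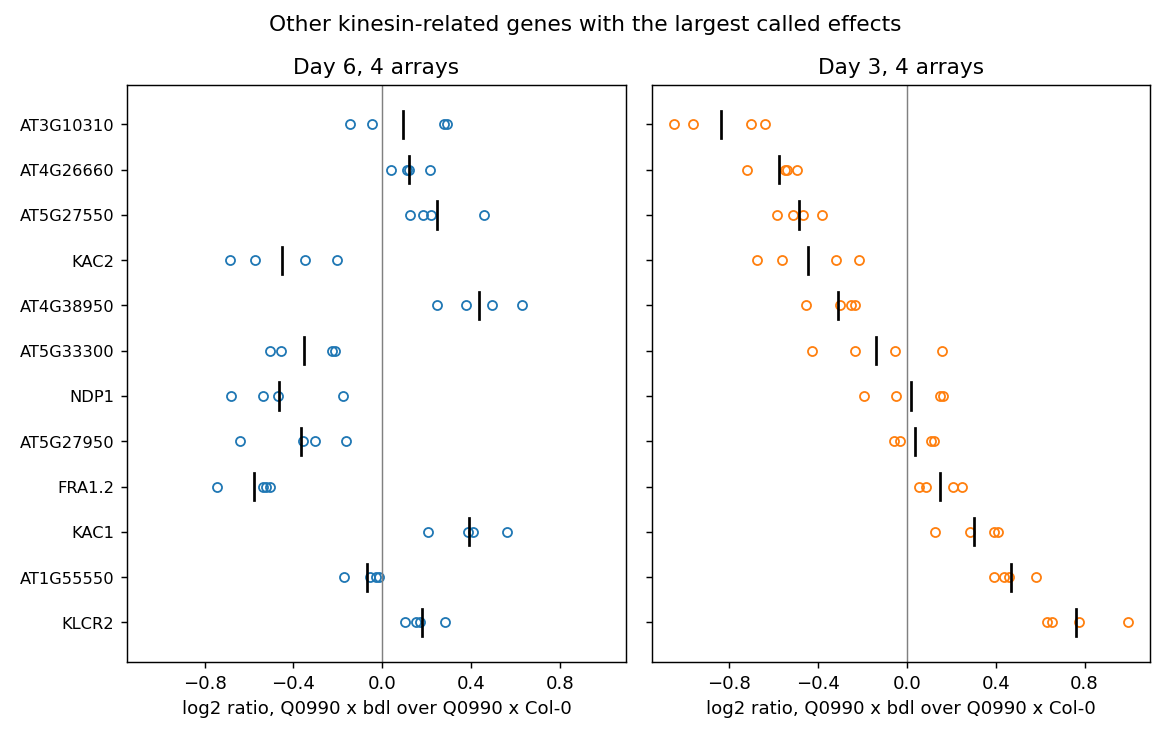
Log2 ratio (Q0990 x bdl divided by Q0990 x Col-0) on each array (circles) for the 12 kinesin-related models outside the phragmoplast and spindle groups with the largest called effects, with day 6 left and day 3 right. Black bars are means of 4 arrays. KLCR2 and AT1G55550 are above 0 and AT3G10310, AT4G26660 and AT5G27550 below 0 on all 4 day 3 arrays, while FRA1.2, the reporter of AT5G47820.2, stands lowest on day 6.

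The remaining 35 motor models, most of them kinesin-7 and kinesin-14 genes, gave 28 tests on day 6 and 27 on day 3. On day 6, 3 were called higher and 1 lower, and on day 3, 3 were called higher and 9 lower, which is 14.3% called on day 6 and 44.4% on day 3, against 35.5% and 41.7% over all gene models. The largest day 3 effect of any kinesin model belonged to AT3G10310, a kinesin-14, with ratios of 0.28, -0.05, 0.29 and -0.15 on day 6, against -0.96, -0.70, -1.05 and -0.64 on day 3. Its effects were 0.09 on day 6 (adjusted p = 0.497, SD 0.225, n = 4) and -0.84 on day 3 (1.79-fold lower, adjusted p = 0.000351, SD 0.199, n = 4). The difference of 0.93 (95% interval 0.61 to 1.25, adjusted p = 0.0013) was also the largest among the kinesin models. On both days the ratios of AT3G10310 split by array pair, with replicates 1 and 3 farther from 0 than replicates 2 and 4.

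A further 3 genes of this group were lower on day 3 and higher on day 6. AT4G38950, a kinesin-7 that the array describes as similar to HIK, had ratios of 0.63, 0.49, 0.24 and 0.38 on day 6, against -0.23, -0.30, -0.46 and -0.25 on day 3. Its effects were 0.44 on day 6 (1.35-fold higher, adjusted p = 0.000826) and -0.31 on day 3 (1.24-fold lower, adjusted p = 0.00327). AT5G27550, a kinesin-14, had ratios of 0.46, 0.18, 0.12 and 0.22 on day 6, against -0.38, -0.51, -0.59 and -0.47 on day 3, with effects of 0.25 (adjusted p = 0.0135) and -0.49 (adjusted p = 0.000403). For AT1G72250, also a kinesin-14, the ratios were 0.48, 0.12, 0.24 and 0.16 on day 6, against -0.18, -0.35, -0.45 and -0.39 on day 3, with effects of 0.25 (adjusted p = 0.019) and -0.34 (adjusted p = 0.00367). The 2 days did not overlap for any of the 3, and their differences between days were 0.74, 0.73 and 0.59 (adjusted p = 0.000296, 0.000362 and 0.00152). These genes were grouped by their calls on the same ratios, so the lack of overlap adds no support. The day 6 call of AT5G27550 was lost without day 6 replicate 1 or 4, and that of AT1G72250 without day 6 replicate 1, 3 or 4.

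The opposite order was seen for AT1G55550 and AT2G21380. AT1G55550, a kinesin-14, had ratios of -0.03, -0.06, -0.17 and -0.01 on day 6, against 0.46, 0.58, 0.39 and 0.44 on day 3, with effects of -0.07 on day 6 (adjusted p = 0.313) and 0.47 on day 3 (1.38-fold higher, adjusted p = 0.000186). AT2G21380, a kinesin-7, had ratios of -0.37, -0.12, -0.10 and -0.11 on day 6, against 0.31, 0.40, 0.50 and 0.24 on day 3, with effects of -0.17 (adjusted p = 0.0683) and 0.37 (adjusted p = 0.00239). The differences between days were -0.53 for AT1G55550 (adjusted p = 0.000615) and -0.54 for AT2G21380 (adjusted p = 0.00215). AT5G27950, a motor whose family was not assigned here, was lower on day 6, with ratios of -0.64, -0.30, -0.36 and -0.16 on day 6, against 0.12, -0.06, 0.11 and -0.03 on day 3 and effects of -0.37 (adjusted p = 0.00618) and 0.04 (adjusted p = 0.737). Its intensities exceeded the blank spots on 1 day 6 array in each cross. The kinesin-8 genes AT1G18550 and AT3G49650 had day 3 effects of -0.07 and -0.25, of which that of AT3G49650 was called.

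Of the 11 members that are not motors, 10 were tested on each day. On day 6, 4 were called higher and 2 lower, and on day 3, 1 was called higher and 2 lower, against 35.5% of all gene models called on day 6 and 41.7% on day 3. The kinesin light chain-related proteins KLCR1, KLCR2 and KLCR3 link cellulose synthase tracks to cortical microtubules. KLCR2 (AT3G27960) had the largest day 3 effect above 0 of any member. Its intensities on day 3 were 300.2, 247.9, 562.7 and 408.8 in Q0990 x bdl, against 175.3, 100.2, 307.2 and 244.1 in Q0990 x Col-0. The KLCR2 ratios were 0.28, 0.10, 0.17 and 0.15 on day 6, against 0.63, 0.99, 0.77 and 0.65 on day 3. Q0990 x bdl was the brighter channel on each array, and the effects were 0.18 on day 6 (adjusted p = 0.0713, SD 0.075, n = 4) and 0.76 on day 3 (1.70-fold higher, adjusted p = 8.84e-05, SD 0.167, n = 4), with a difference of -0.59 (adjusted p = 0.00177). On day 6 it was dim and exceeded the blank spots on 1 array in each cross.

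KLCR1 (AT4G10840) was measured through both of its gene models. AT4G10840.1 had ratios of 0.16, 0.32, 0.17 and 0.30 on day 6, against 0.03, -0.03, 0.03 and -0.09 on day 3, and AT4G10840.2 had 0.40, 0.29, 0.36 and 0.27 on day 6, against 0.05, 0.05, 0.06 and 0.14 on day 3. Both were called higher on day 6, with effects of 0.24 (adjusted p = 0.00779) and 0.33 (adjusted p = 0.00116). The difference between days was 0.26 for either model and was called for both. KLCR3 had no called effect. AT1G01320, a tetratricopeptide repeat protein, was higher on day 6 (effect 0.31, adjusted p = 0.0112).

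AT4G26660 and AT5G55520, which the array describes as weakly similar to PAKRP1, were lower on day 3. The AT4G26660 ratios were 0.21, 0.04, 0.12 and 0.11 on day 6, against -0.54, -0.55, -0.49 and -0.72 on day 3, with effects of 0.12 on day 6 (adjusted p = 0.117) and -0.58 on day 3 (1.49-fold lower, adjusted p = 0.000121). The AT5G55520 ratios were 0.32, 0.27, 0.28 and 0.28 on day 6, against -0.20, -0.56, -0.63 and -0.14 on day 3, and the effects were 0.29 on day 6 (adjusted p = 0.0322) and -0.39 on day 3 (adjusted p = 0.00764). Their differences between days of 0.70 and 0.67 were called (adjusted p = 0.000306 and 0.00304). NDP1 (AT5G02130), described by similarity to a light chain, was lower on day 6, with ratios of -0.18, -0.54, -0.47 and -0.68 on day 6, against -0.05, 0.16, -0.20 and 0.15 on day 3 and effects of -0.47 (1.38-fold lower, adjusted p = 0.0038) and 0.02 (adjusted p = 0.894). AT5G33300, weakly similar to a chromosome-associated kinesin, had ratios of -0.21, -0.46, -0.23 and -0.51 on day 6, against -0.43, -0.05, -0.23 and 0.16 on day 3. Its effects were -0.35 on day 6 (adjusted p = 0.0226) and -0.14 on day 3 (adjusted p = 0.282), and the day 6 call was lost without day 6 replicate 2, 3 or 4.

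Other genes of the division apparatus were read from lists beside the kinesins. Of 39 models tested from a list of microtubule and cytokinesis proteins, 10 were called higher and 2 lower on day 6, and 1 higher and 15 lower on day 3, with medians of 0.07 on day 6 and -0.16 on day 3. The total shares called, 30.8% on day 6 and 41.0% on day 3, were near the 35.5% and 41.7% over all gene models. By direction, 25.6% were higher and 5.13% lower on day 6, against 16.2% and 19.3% over all gene models. On day 3, 2.56% were higher and 38.5% lower, against 20.8% and 20.9%. Of the G2/M list of cyclins, kinases and their partners, 4 were called higher and 1 lower of 21 on day 6, and 0 higher and 12 lower of 20 on day 3, with medians of 0.09 on day 6 and -0.26 on day 3, which is 23.8% called on day 6 and 60% on day 3. The G2/M models called higher on day 6 numbered 1 without day 6 replicate 1 or 4, 2 without day 6 replicate 3 and 2 with the replicate number as a block, and those called lower on day 3 numbered 8 without day 3 replicate 3 and 7 with each day fitted alone. Of the tubulin models, 4 were called higher and 1 lower of 15 on day 6, and 2 higher and 3 lower of 14 on day 3, shares of 33.3% and 35.7% that were near those over all gene models. The tubulins called higher on day 6 numbered 2 without day 6 replicate 1 or 3. The median over all gene models was 0 to 2 decimals on both days.

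In the cascade that HIK and TES activate, MKK6, the MAP kinase kinase, was lower on day 6 (effect -0.61, 1.53-fold, adjusted p = 6.10e-05) and higher on day 3 (effect 0.34, 1.27-fold, adjusted p = 0.000676). ANP2, an upstream kinase, was lower on day 6 (effect -0.43, adjusted p = 0.000963) and on day 3 (effect -0.28, adjusted p = 0.00618), as TES was. ANP3 had effects of 0.17 on day 6 (adjusted p = 0.117) and -0.39 on day 3 (adjusted p = 0.00348), while ANP1 and MPK4 were not called on either day. Among partners on the microtubules, the bundling proteins MAP65-2 and MAP65-4 had day 3 effects of -0.72 and -0.69 (1.65-fold and 1.61-fold lower, adjusted p = 4.30e-05 and 6.93e-05), and TAN, which marks the division site, had one of -0.53 (adjusted p = 0.000147). On day 6 the bundling protein PLE and the cytokinesis syntaxin KNOLLE had effects of 0.47 and 0.35 (adjusted p = 0.00413 and 0.00152), and MAP65-6 one of 0.32 (adjusted p = 0.00111).

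Tubulins, the building blocks of microtubules, moved in both directions. TUB5 was higher on both days (effects 0.46 on day 6 and 0.57 on day 3, adjusted p = 0.00118 and 0.000282). TUB3 and TUB2 were higher on day 6 (0.39 and 0.36, adjusted p = 0.000559 and 0.0104) and lower on day 3 (-0.49 and -0.48, adjusted p = 0.000128 and 0.00234). TUB4 was lower on day 6 (-0.33, adjusted p = 0.00362), TUB7 lower on day 3 (-0.43, adjusted p = 0.000168) and TUB1 higher on day 3 (0.37, adjusted p = 0.000564).

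The one model of the G2/M list called lower on day 6 was CDKB1;2, a cyclin-dependent kinase (effect -0.44, adjusted p = 0.0194), and the call was lost when any one of the day 6 arrays was left out. CYCA1;1, a mitotic cyclin, had effects of 0.21 on day 6 (adjusted p = 0.0106) and -0.81 on day 3 (1.75-fold lower, adjusted p = 2.14e-05). AUR1, an Aurora kinase, had effects of 0.45 on day 6 (adjusted p = 0.000435) and -0.65 on day 3 (1.57-fold lower, adjusted p = 6.00e-05). AUR2 had a day 6 effect of 0.25 (adjusted p = 0.048), and the cyclin CYCB2;4 a day 3 effect of -0.49 (adjusted p = 0.000165).

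Some embryo markers had larger effects than any kinesin model. The effect of WOX5, of the root stem cell niche, was -1.98 on day 3 (adjusted p = 5.82e-06), and PLT1, of the embryonic root, had an effect of -2.03 on day 6 (adjusted p = 0.000256). CUC1 and CUC3, which separate the cotyledons, were higher on day 6 (0.66 and 0.28, adjusted p = 0.00307 and 0.0243) and lower on day 3 (-1.13 each, adjusted p = 0.00017 and 3.69e-05). FUS3, a regulator of seed maturation, was higher on day 6 (0.29, adjusted p = 0.00132), and PLT2 was lower (-0.51, adjusted p = 0.0102). Of the endosperm list, PHE1, ALE1 and ZOU were higher on day 6 (0.37, 0.27 and 0.21, adjusted p = 0.015, 0.00375 and 0.0222), and MEA, AGL36 and PHE1 were higher on day 3 (1.07, 0.92 and 0.85, adjusted p = 6.93e-05, 5.36e-05 and 0.000213). Of the seed coat list, the flavonoid genes F3H, TT5 and TT4 were higher on day 6 (0.78, 0.44 and 0.36, adjusted p = 9.40e-05, 0.00902 and 0.0147) and TTG2 and TT3 lower (-0.43 and -0.36, adjusted p = 0.00164 and 0.0224). On day 3 AHA10, TT3 and TT5 were higher (0.93, 0.91 and 0.76, adjusted p = 0.0208, 0.000234 and 0.000478).

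**Figure D4:**
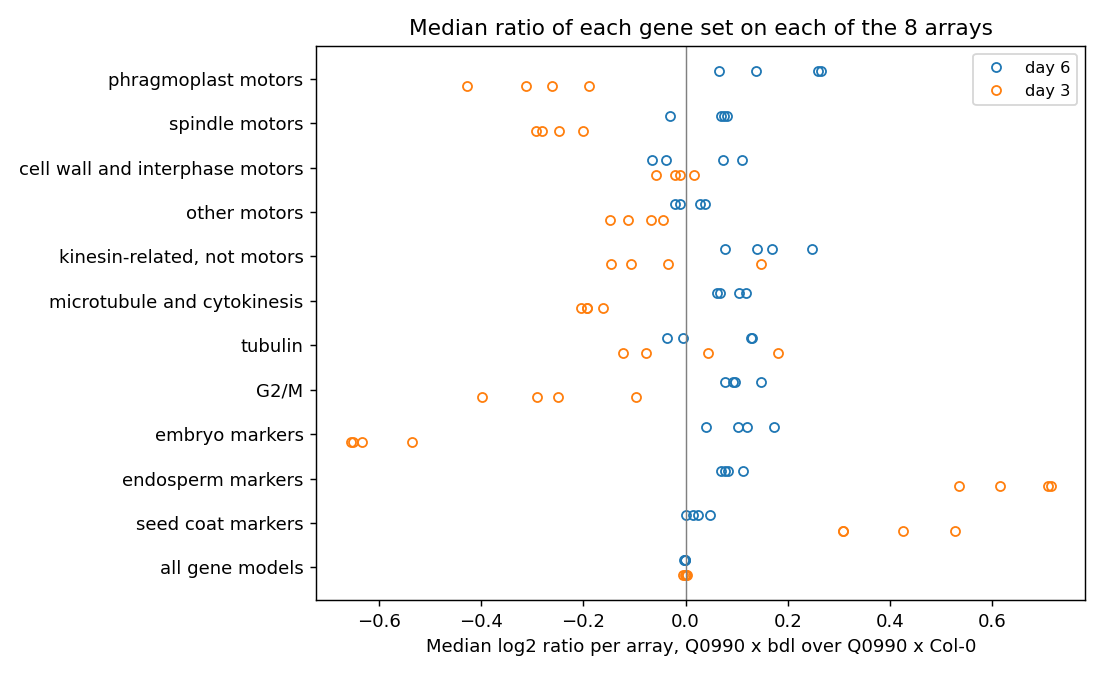
Median log2 ratio (Q0990 x bdl divided by Q0990 x Col-0) over each gene set on each array, with blue circles for the 4 day 6 arrays and orange circles for the 4 day 3 arrays. Phragmoplast motors, spindle motors, the microtubule and cytokinesis list, the G2/M list and the embryo markers lie below 0 on each day 3 array, and the endosperm and seed coat markers lie above 0 there, while medians of all gene models lie near 0.

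The level of each kinesin in each cross was also compared between days, from the separate channels of gene models measured on all 8 arrays. In Q0990 x bdl 10 of 62 models were called higher and 7 lower on day 6 than on day 3. Of all gene models tested there, 15.8% were higher and 15.5% lower, 31.2% in all. In Q0990 x Col-0 2 of 62 were called higher and 4 lower, against 13.4% higher and 12.7% lower, 26.1% in all. Both comparisons share the arrays of the ratio tests. The change in Q0990 x bdl minus that in Q0990 x Col-0 is the difference between days given above. Age of the embryos and the arrays of each day cannot be told apart here.

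**Figure D5:**
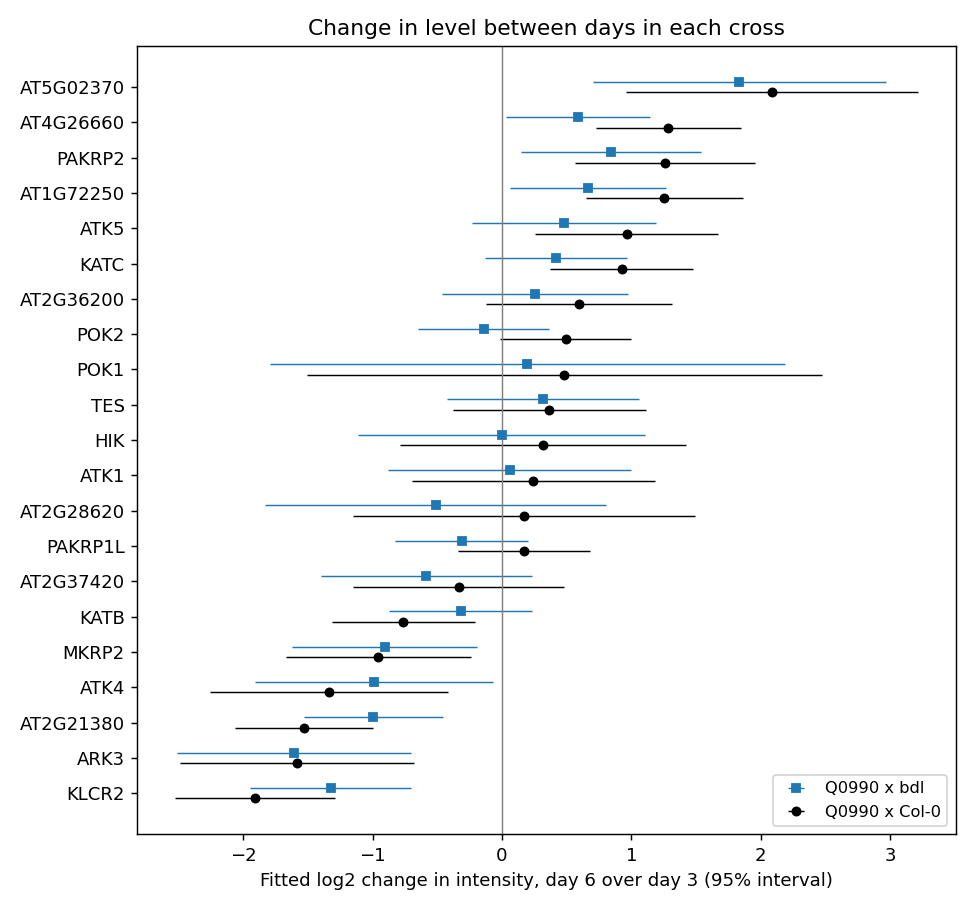
Fitted log2 change in intensity on day 6 over day 3 in Q0990 x bdl (black circles) and in Q0990 x Col-0 (blue squares), with 95% confidence intervals. The models are the phragmoplast and spindle motors and the 10 models with the largest called changes in Q0990 x bdl. The legend inside the figure names the crosses the other way round. AT5G02370, PAKRP2 and AT4G26660 lie at the top, higher on day 6, and KLCR2 and ARK3 at the bottom, lower on day 6.

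The kinesin-10 gene AT5G02370 rose most, by 2.09 in Q0990 x bdl (4.25-fold, adjusted p = 0.0068) and 1.83 in Q0990 x Col-0 (adjusted p = 0.0183). Its intensities in Q0990 x Col-0 were 838.1, 182.2, 75.95 and 344.8 on day 6, against 30.55, 23.58, 23.49 and 64.02 on day 3. The day 3 intensities lay near the blank spots, and with no offset the calls were lost in both crosses. The adjusted p was then 0.0894 in Q0990 x bdl and 0.224 in Q0990 x Col-0. The Q0990 x Col-0 call was also lost without day 3 replicate 3, day 6 replicate 1 or day 6 replicate 4. AT4G26660 and AT1G72250 rose by 1.29 and 1.26 in Q0990 x bdl (adjusted p = 0.00139 and 0.00302). In Q0990 x Col-0 they changed by 0.59 and 0.66, not called. PAKRP2 rose by 1.26 in Q0990 x bdl (adjusted p = 0.00764) and changed by 0.85 in Q0990 x Col-0 (adjusted p = 0.069). ATK5 rose by 0.96 in Q0990 x bdl (adjusted p = 0.0381) and changed by 0.48 in Q0990 x Col-0 (adjusted p = 0.317). The Q0990 x bdl call of ATK5 was lost without day 3 replicate 1, 2 or 4 or day 6 replicate 1, 3 or 4. KATC rose by 0.93 in Q0990 x bdl (adjusted p = 0.0124) and changed by 0.42 in Q0990 x Col-0 (adjusted p = 0.257). Its Q0990 x bdl call was lost without day 3 replicate 3. AT2G28620, not called in Q0990 x bdl (adjusted p = 0.863), was called there without day 6 replicate 1 (1.07, adjusted p = 0.013).

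Among the models with lower levels on day 6, KLCR2 fell on the log2 scale by 1.91 in Q0990 x bdl (adjusted p = 0.000104). In Q0990 x Col-0 it fell by 1.32 (adjusted p = 0.00305). ARK3 fell by 1.58 in Q0990 x bdl (adjusted p = 0.00948) and by 1.61 in Q0990 x Col-0 (adjusted p = 0.0108). AT2G21380 fell by 1.53 in Q0990 x bdl (adjusted p = 0.000221) and by 0.99 in Q0990 x Col-0 (adjusted p = 0.00834). For ATK4 and MKRP2 (AT4G39050) the changes were -1.34 and -0.96 in Q0990 x bdl (adjusted p = 0.0269 and 0.0408). In Q0990 x Col-0 they were -0.99 and -0.91, not called. The Q0990 x bdl call of ATK4 was lost without day 3 replicate 1 or 3 or day 6 replicate 1 or 3. That of MKRP2 was lost without day 3 replicate 2, 3 or 4 or day 6 replicate 1, 2 or 4. KINESIN-13A, which acts at the Golgi and in trichome shape, fell by 0.89 in Q0990 x bdl (adjusted p = 0.00925). In Q0990 x Col-0 it fell by 0.95 (adjusted p = 0.00736). KATB, of the spindle motors, was lower on day 6 in Q0990 x bdl (-0.76, adjusted p = 0.0345). The KATB call was lost without any of day 3 replicates 1, 2 and 3 and day 6 replicates 1, 3 and 4. FRA1 read through AT5G47820.1 was higher on day 6 in both crosses. Its changes were 0.82 in Q0990 x bdl and 0.99 in Q0990 x Col-0 (adjusted p = 0.0139 and 0.00547).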

How the data were processed

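Amplified RNA of Arabidopsis embryos was measured on 8 2-colour long-oligonucleotide arrays, 4 per day, each holding Q0990 x bdl and Q0990 x Col-0. Per the file headers, what the authors deposited is a single intensity for either channel of each spot. The image software, the background treatment and any normalization behind these intensities are not given in the sources used here. The table the authors deposited for the whole series holds log2 ratios (Q0990 x bdl divided by Q0990 x Col-0), equal to those of the intensities to 6 decimals for 99.92% to 99.98% of values. It was used only for this check. Of the intensity cells, 1 held letters and was read as missing.

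An offset of 50 was added, log2 ratios were normalized by loess within each array (span 0.3, 4 iterations, control spots at weight 0), and spots were averaged per reporter and reporters per gene model. Reporters above the 95th percentile of the 1743 blank spots in at least 4 of 16 channel measurements, with values on at least 3 arrays of a day, were tested with limma 3.58.1 in R 4.3.3 (lmFit and eBayes, terms for day and dye). Gene models were used where the design named genes, since the rule for the members names gene models. Levels between days came from limma's separate-channel fit after Aquantile normalization (intraspot correlation 0.946, statmod 1.5.0). Adjusted p-values are Benjamini-Hochberg over all gene models, and the fits were tested on simulated data. The number of arrays limits the precision.

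Values on every array are given for the phragmoplast and spindle motors, for the 8 called members with the largest effect on each day and for the 6 with the largest difference between days. The 5 called members highest and lowest on day 6 against day 3 in Q0990 x bdl, and up to 3 called genes per direction and day of each list, are named. Other genes were chosen after their values were seen. Symbols come from the RefSeq TAIR10.1 gene table or the array descriptions, and families and roles from general knowledge of plant kinesins. The members and lists were chosen with earlier results of these data known. The labels do not say whether replicate numbers pair the days, and the main fits did not pair them. Deviations of same-numbered arrays correlated at -0.266 to -0.149 across days. Day 3 replicate 1 and day 6 replicate 3, of unlike number, correlated at -0.246, so these correlations cannot decide it.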

Additional observations from a re-analysis of the deposited data

Results flagged for a closer look

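In 9 of 125 groups of 4 arrays checked, 1 array lay far from the other 3, where chance gives about 1 in 20. On day 6 these were replicate 1 for AT2G21380 (-0.37), AT2G47500 (0.86) and FRA1 read through AT5G47820.2, labelled FRA1.2 (-0.74), and replicate 4 for AT2G36200 (0.05). On day 3 they were replicate 2 for AT2G37420 (0.25) and AT5G60930 (-0.11), and replicate 4 for AT1G18410 (0.41), AT3G20150 (-0.84) and KLCR1 read through AT4G10840.2, labelled KLCR1.2 (0.14).

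For 25 of the 62 members tested (40.3%), the test of the difference between days was called. This share was near the 41.1% over all gene models. The day 6 effect minus the day 3 effect was positive for AT3G10310 (0.93), AT4G38950 (0.74), AT5G27550 (0.73), AT4G26660 (0.70), AT2G28620 (0.68), AT5G55520 (0.67), POK2 (0.63), AT1G72250 (0.59), KATC (0.51), PAKRP1L (0.48), ATK5 (0.48), AT5G60930 (0.47), PAKRP2 (0.42), AT2G36200 (0.34), KICP-02 (0.30), AT5G23910 (0.30), KLCR1.1 (0.26) and KLCR1.2 (0.26). It was negative for FRA1.2 (-0.73), KLCR2 (-0.59), AT2G21380 (-0.54), AT1G55550 (-0.53), NDP1 (-0.48), KATB (-0.44) and AT5G27950 (-0.40).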

How the results depend on the processing

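The median change between days over the kinesin models in Q0990 x Col-0 (-0.073) changed sign without day 6 replicate 4 (0.0053), and no called value of a named gene did under an alternative. Of 2441 values of named genes under alternatives, 2345 kept their direction and side of the threshold, 55 lost a call and 41 gained one. With only reporters above the blank spots in all 16 measurements, the calls were 5 higher on day 6 and 3 higher and 13 lower on day 3 (median -0.14). There were 4 negative differences between days. Between days, 3 were called higher and 4 lower in Q0990 x bdl, and 0 higher and 2 lower in Q0990 x Col-0. Of the phragmoplast and spindle motors, 1 was higher on day 6, 5 were lower on day 3 and 4 had a positive difference. Fewer models were tested there, namely 28 kinesin models, with 7 phragmoplast and spindle motors among them. Over all gene models in that setting, 5295 of 10209 were called on day 3 and 5416 of 10209 for the difference between days. Their directions are not given here. With no offset the median difference between days was 0.27 and 1 model was called higher between days in Q0990 x Col-0. The cause was not tested. With each day fitted alone, 0 phragmoplast and spindle motors were called higher on day 3. With the array pair term, chosen after the data were seen, 18 models were called higher on day 6 and 12 differences negative. Shares over all gene models with this term are not given here. With the replicate number as a block, which shares only a number across days, 10 were called higher and 6 lower on day 6, and 5 higher and 20 lower on day 3. The same block gave 6 higher between days in Q0990 x Col-0, and 0 phragmoplast and spindle motors higher on day 3 (KATB, adjusted p = 0.054).

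Leaving out 1 array at a time gave 6 to 12 higher and 6 to 9 lower on day 6 (median 0.036 to 0.10), 4 to 7 higher and 19 to 21 lower on day 3 (median -0.092 to -0.048), and median differences between days of 0.13 to 0.24. Between days it gave 6 to 10 higher and 4 to 6 lower in Q0990 x bdl, and 1 to 3 higher in Q0990 x Col-0 (median -0.13 to 0.0053). The phragmoplast and spindle motors called higher on day 3 numbered 0 to 1. The alternative with the deposited series table was not run, because its rows carry no reporter names. Dim reporters limit the small effects: 28 of 73 models exceeded the blank spots in every measurement. Cross-hybridisation between close relatives was not tested.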
